A study of Homo sapiens with 15 samples.

Results

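RasV12 is a transformed human cell line built from ARPE19, and its 3 RNA libraries were compared here with the 3 libraries of the ARPE19 parent, 6 of the 15 libraries in the series. Membership follows the line named in each label and the replicate number 1, 2 or 3. ARPE19 is an established line of the retinal pigment epithelium, the cell layer behind the photoreceptors. The labels give it no transfection and call it not transformed. RasV12 is labelled as carrying pbabe-hTERT with p53DD, pbabe-cyclinD1 with CDK4R24C, and pWZL-H-RasV12. hTERT is the catalytic subunit of telomerase, p53DD a dominant negative p53 fragment, CDK4R24C a CDK4 mutant that resists its inhibitors, and H-RasV12 a RAS protein locked in its active state. The comparison therefore spans all of these constructs at once. Both lines were grown in DMEM/F12 with 10% FBS, and each replicate came from its own thawed vial passaged 2 times. RasV12 is a single line, so the spread among its libraries covers vials and cultures and not independent transfections. Of the other lines, T53D4 is labelled with the first 4 of these genes, MekDD with those plus an active MEK, and AKTmyr with those plus a membrane-bound AKT.

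RAS proteins pass growth factor signals through the kinases RAF, MEK and ERK to transcription factors of the AP-1 and ETS families. ERK also switches on its own inhibitors, the dual-specificity phosphatases (DUSP genes) and the Sprouty and SPRED proteins, so their RNA is widely used as a readout of the pathway. p53 drives arrest and death genes after stress, and cyclin D1 with CDK4 releases E2F, the activator of replication and division genes.

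Levels are given in CPM, the usual read count relative to library size, after trimmed-mean scaling, for replicates 1, 2 and 3 in that order. CPM does not correct for gene length, so levels are compared between lines and not between genes. Differences are log2 fold changes of RasV12 over ARPE19 with their standard error (SE), and a gene is called higher or lower where the edgeR quasi-likelihood test gave a Benjamini-Hochberg adjusted p under 0.05 over the 13599 tested genes. The 6 libraries held 22.24 to 41.69 M reads on genes. RNA was taken from bulk cultures, so a change within every cell and a change in the share of cells expressing a gene cannot be told apart. Of the markers of mature pigment epithelium, RPE65, the visual cycle isomerase, had 1 read in RasV12 and 0 in ARPE19. RGR, KCNJ13, TRPM1 and SLC16A8 had 0, 0, 2 and 1 reads in RasV12 and 0, 2, 3 and 14 in ARPE19. TTR, DCT and CLDN19 had no row of counts. The pigment cell regulator MITF was expressed in every library, as were KRT8 and KRT18, which are keratins of simple epithelium in general. Of 26 listed markers of other cell types, 17 had a row of counts. These summed to between 83.5 and 89.1 CPM in the RasV12 libraries and between 90.4 and 114 in ARPE19. Of the 7 that passed the filter on low counts, 2 were called higher (1 without ARPE19 replicate 1) and 2 lower. Each share, 28.6%, stands beside 14.4% higher and 16.2% lower among all tested genes. ACTN2 rose from a mean of 0.817 CPM in ARPE19 to 3.82 in RasV12, and SYT1 fell from 16.3 to 7.28. PTPRC, the leukocyte antigen, had 4 and 13 reads, and CD3E, HBB and ALB have no row in the table.

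The count table has rows for the constructs themselves. Reads on the HRASV12 construct stood at 331, 325 and 276 CPM in RasV12 and at 13.9, 21.1 and 27.2 in ARPE19. The TERT construct held 1318, 1224 and 1189 CPM in RasV12 against 17 reads over all 3 ARPE19 libraries, and the murine p53DD construct held 121, 96.9 and 114 CPM against 1 read. CDK4R24C stood at 2380 ± 23.3 CPM (SD, n = 3) in RasV12 and 70.7 ± 12 in ARPE19, and the cyclin D1 construct at 2350 ± 121 and 193 ± 41.6. All 5 constructs of the RasV12 label were thus above every ARPE19 library. MEKDD, which the label does not list, had 6 reads in RasV12 and none in ARPE19, and the AKT construct had similar levels in both lines, 118 ± 11.3 and 104 ± 5.11. HRAS, CCND1, CDK4, AKT1 and TERT are also genes of the cell, and where the sequence is shared, endogenous and introduced copies cannot be told apart. The rows of those genes are therefore uncertain. The HRAS gene row (ENSG00000174775) read 433, 471 and 379 CPM in RasV12 and 32.8, 41.6 and 54.2 in ARPE19. In the libraries labelled T53D4, reads on the CDK4R24C and cyclin D1 constructs stood at 92.2 and 146 CPM. These levels were near the 70.7 and 193 CPM of ARPE19, which is labelled with no transfection. In the libraries labelled MekDD they stood at 142 and 270 CPM, and in AKTmyr at 1006 and 858. T53D4 and MekDD were thus far below the RasV12 level. Levels and contrasts of T53D4 and MekDD are therefore those of the libraries so labelled.

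**Figure D1:**
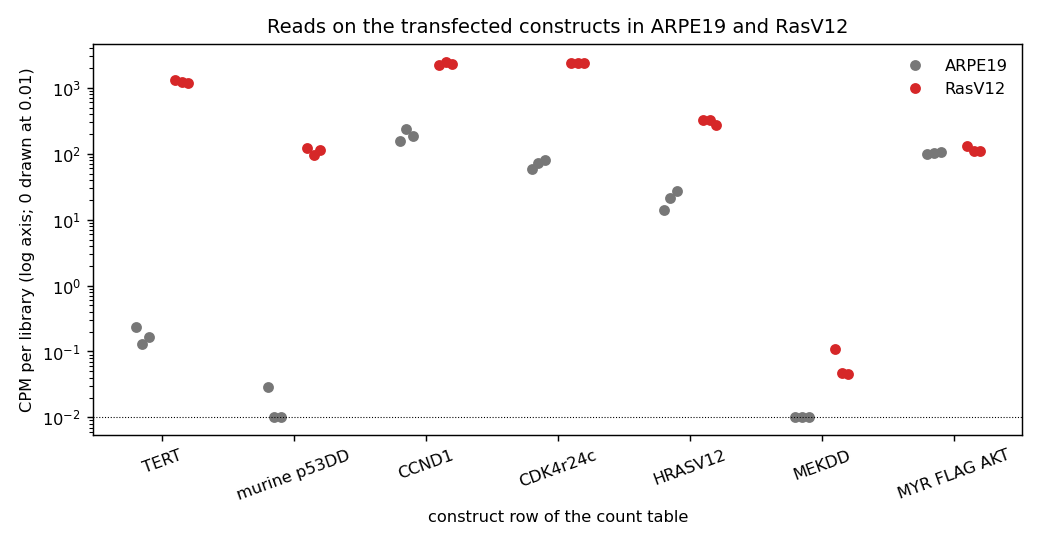
CPM on each construct row (log axis) in the 3 libraries of ARPE19 (grey) and of RasV12 (red), 1 point per library, with 0 drawn at 0.01. The RasV12 points stand above the ARPE19 points for TERT, murine p53DD, CCND1, CDK4R24C and HRASV12, by 15.7-fold for HRASV12, while the AKT construct is near 100 CPM in both lines.

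RasV12 and ARPE19 differed in 4169 of 13599 genes, 30.7% of those tested. Higher genes numbered 1964 (14.4%) and lower genes 2205 (16.2%). Among changes of 2-fold or more the falls outnumbered the rises, 1299 (9.55%) against 710 (5.22%), and among those of 8-fold or more the counts were 305 and 163. The median log2 fold change of all tested genes was 0.01. Of the called genes, 1940 higher and 2189 lower had the same sign within all 3 replicate numbers, and 1079 and 1404 stayed called in each of the 6 fits that left out 1 library. Libraries of the 2 lines did not overlap for 2931 genes higher (21.6%) and 3084 lower (22.7%). T53D4 differed from ARPE19 in 21 genes (0.154%) in the same fit, 0.0368% higher and 0.118% lower.

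Among the largest rises, MMP1, a collagenase (ENSG00000196611, hg38 chromosome 11, 102789919 to 102798160), read 2155, 3249 and 5088 CPM in RasV12 and 0.0879, 0.179 and 0.583 in ARPE19. Every RasV12 library exceeded every ARPE19 library by over 3 orders of magnitude (log2 13.72, SE 0.87, edgeR, Benjamini-Hochberg adjusted p = 3.23e-07). BCL2A1, a survival protein of the BCL2 family, read 9.82, 3.22 and 16.3 CPM in RasV12 and had no read in ARPE19, at least 270-fold higher when 3 reads over the ARPE19 libraries are taken as the floor. LCE1F, a cornified envelope gene, was at least 271-fold higher on the same floor. PI3, the elastase inhibitor elafin, was called as well and at least 829-fold higher. Its levels in RasV12 were 0.256, 3.17 and 99.5 CPM, and it fell under the filter on low counts without RasV12 replicate 2. GFPT2, an enzyme of the hexosamine pathway, read 59.2, 47.7 and 47.5 CPM against 0.117, 0 and 0.0833 (log2 9.60, SE 0.52, edgeR, Benjamini-Hochberg adjusted p = 9.83e-08). G0S2, an inhibitor of lipolysis, had 1136 reads in RasV12 and 1 in ARPE19, a CPM ratio of 1201 (95% exact binomial interval 215 to 47491). Such floors and intervals cover counting error only.

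The largest falls left several genes with almost no reads in RasV12. ITM2A (ENSG00000078596, hg38 chromosome X, 79360384 to 79367667), a membrane protein, had no read in RasV12 and 23.9, 12.2 and 14.7 CPM in ARPE19, at least 519-fold lower. NPPB, the natriuretic peptide B precursor, read 0.657, 0.236 and 0.0901 CPM in RasV12 and 733, 183 and 203 in ARPE19 (log2 -10.13, SE 1.05, edgeR, Benjamini-Hochberg adjusted p = 1.39e-05). ARPE19 replicate 1 was the highest, yet every ARPE19 library was far above every RasV12 library. CCL2, a monocyte chemokine, read 0.0365, 0.0236 and 0.225 CPM against 99.7, 75.8 and 28.3 (log2 -9.71, SE 1.15, edgeR, Benjamini-Hochberg adjusted p = 3.93e-05). GALNT17, a glycosyltransferase, had 2 reads in RasV12 and 2420 in ARPE19, a ratio of 1144 (95% exact binomial interval 316 to 9454). VANGL2, a planar polarity protein, fell by 7.72 on the log2 scale (SE 0.54, edgeR, Benjamini-Hochberg adjusted p = 5.46e-07), and its means in ARPE19, T53D4, MekDD and AKTmyr were 12.2, 9.42, 0.891 and 4.31 CPM.

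Feedback inhibitors of ERK rose in part. Of 19 tested, 8 rose, 4 fell and 7 did not pass, with a median of 0.43. Counts of this and the later lists stand beside 14.4% higher and 16.2% lower among all tested genes. DUSP6, a phosphatase specific for ERK (ENSG00000139318, hg38 chromosome 12, 89347235 to 89352501), read 347, 302 and 403 CPM in RasV12 and 7.5, 11 and 7.45 in ARPE19. The groups lay far apart (log2 5.34, SE 0.22, edgeR, Benjamini-Hochberg adjusted p = 3.28e-09). SPRY4, which inhibits signalling upstream of RAF, read 148, 100 and 83.3 CPM against 3.52, 3.89 and 1.87 (log2 5.14, SE 0.39, edgeR, Benjamini-Hochberg adjusted p = 8.67e-07). SPRY2, its relative, read 139, 107 and 111 CPM against 34, 33.9 and 27.6. ERRFI1, an inhibitor of the EGF receptor, and DUSP5, a nuclear ERK phosphatase, rose by log2 2.21 (SE 0.27) and 2.27 (SE 0.29). The falls included DUSP1 and DUSP8, phosphatases that also act on the stress kinases JNK and p38. DUSP1 read 157, 159 and 167 CPM in RasV12 and 522, 315 and 286 in ARPE19 (log2 -1.22, SE 0.28, edgeR, Benjamini-Hochberg adjusted p = 0.00509). LRIG1, a receptor inhibitor, was also called lower, but lost the call in every fit without 1 library except that without ARPE19 replicate 3 (log2 from -0.74 to -1.43 in those 5 fits).

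In the cascade itself, of 30 genes from RAS to ERK, 4 rose and 7 fell, with a median of -0.09. The share of rises, 13.3%, was near the 14.4% of all genes, and that of falls was 23.3% beside 16.2%. BRAF, a RAF kinase, read 22.6, 27.8 and 24 CPM in RasV12 and 25.3, 27.4 and 21.7 in ARPE19, with overlapping groups. RASA1, a GTPase activating protein that switches RAS off, rose from 38.1, 40 and 36.4 CPM to 124, 107 and 98.2 (log2 1.53, SE 0.22, edgeR, Benjamini-Hochberg adjusted p = 0.000212). The exchange factors RASGRP1 and RASGRP3, which load RAS with GTP, fell by 2.34 (SE 0.53) and 1.91 (SE 0.46) on the log2 scale. RASSF2, a RAS effector, read 1.86, 0.733 and 0.72 CPM against 16.3, 5.87 and 6.46.

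Transcription factors of the AP-1 and ETS families, with the EGR genes, gave 12 rises and 3 falls among 26 tested, with a median of 0.85. Among ETS factors, ETV4 of the PEA3 group read 25.3, 26.9 and 19.5 CPM in RasV12 and 2.46, 4.69 and 4.87 in ARPE19 (log2 2.58, SE 0.39, edgeR, Benjamini-Hochberg adjusted p = 0.000259), and ETV5 72.8, 88.1 and 59.1 against 18.5, 32 and 33. ELF3, an epithelial ETS factor, went the other way, from 36.7, 16.6 and 10.5 CPM in ARPE19 to 0.292, 0.0709 and 0.765 (log2 -6.02, SE 0.84, edgeR, Benjamini-Hochberg adjusted p = 0.000157). Among AP-1 subunits, FOSL1 read 307, 211 and 173 CPM against 110, 109 and 108 (log2 1.08, SE 0.23, edgeR, Benjamini-Hochberg adjusted p = 0.00324). FOSL2 fell from 457, 341 and 348 CPM to 185, 155 and 212 (log2 -1.06, SE 0.18, edgeR, Benjamini-Hochberg adjusted p = 0.000737). JUN, with a log2 difference of 0.18, did not pass the test. EGR1, an immediate early gene, read 79.9, 21.9 and 54.8 CPM against 27.3, 6.58 and 4.12 and missed it (log2 2.04, SE 0.75, edgeR, Benjamini-Hochberg adjusted p = 0.0549), with replicate 2 of RasV12 below replicate 1 of ARPE19.

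**Figure D2:**
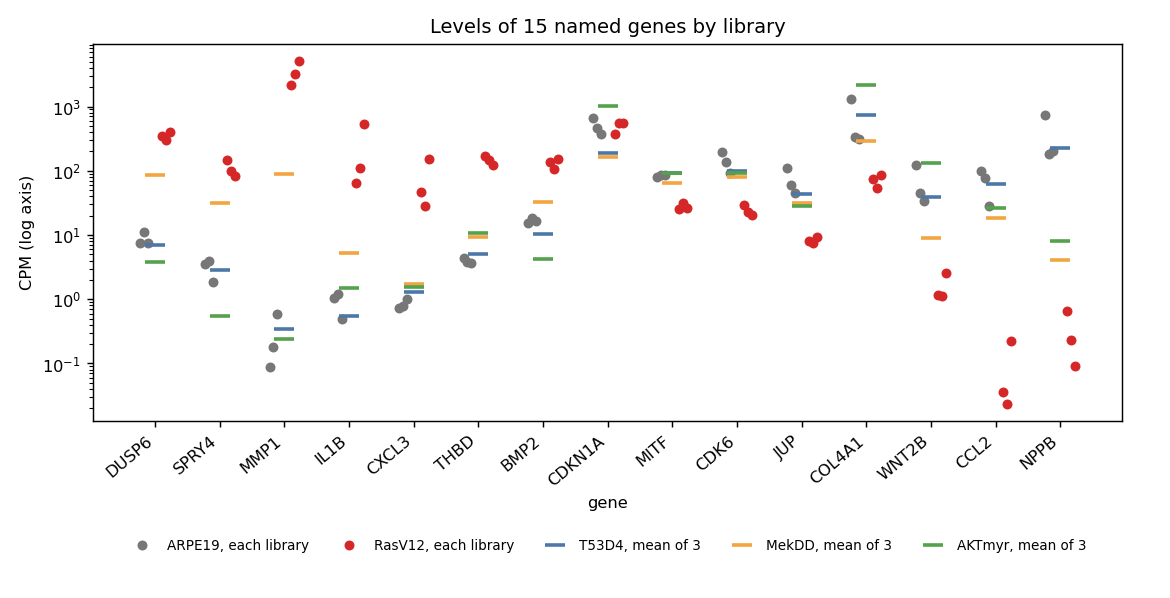
CPM (log axis) of 15 named genes in each library of ARPE19 (grey) and RasV12 (red), with the means of T53D4 (blue), MekDD (orange) and AKTmyr (green) as bars. DUSP6 is between 302 and 403 CPM in RasV12 and at most 11 in ARPE19, CDKN1A overlaps between the lines, and NPPB is under 1 CPM in every RasV12 library.

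Oncofetal genes, which are active in the embryo and in tumours, gave 6 rises and no fall among 7 tested of 14 listed, with a median of 1.15. Under the filter on low counts, IGF2BP1, SALL4 and TRIM71 had 10, 0 and 1 reads in RasV12 and 17, 8 and 7 in ARPE19. LIN28A, LIN28B, H19 and PRAME had no row of counts, so the rises describe only the members that passed the filter. HMGA2, a chromatin protein, read 113, 141 and 133 CPM in RasV12 and 14.4, 23.6 and 29 in ARPE19 (log2 2.53, SE 0.29, edgeR, Benjamini-Hochberg adjusted p = 3.19e-05). HMGA1, its relative, read 4202, 3974 and 2373 CPM against 837, 1136 and 1386, and the RNA-binding protein IGF2BP3 53, 47.6 and 34.6 against 13.9, 20.6 and 21.6. In all 3 genes the groups did not overlap.

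Metalloproteinases and their inhibitors changed in 16 of 19 tested genes, 6 higher and 10 lower. MMP3, stromelysin, read 31, 814 and 1624 CPM in RasV12 and 0.0879, 2.56 and 17.4 in ARPE19, so replicates within each line differed by more than 10-fold while the lines did not overlap (log2 6.98, SE 1.76, edgeR, Benjamini-Hochberg adjusted p = 0.00853). MMP10, a related stromelysin, had 96 reads in RasV12 and none in ARPE19, at least 33.8-fold higher. The inhibitors split. TIMP1 rose from 121, 108 and 102 CPM to 674, 529 and 1127 (log2 2.81, SE 0.27), and TIMP3 fell from 261, 217 and 217 to 50.7, 68.3 and 52.5 (log2 -2.02, SE 0.25). ADAMTS5, an aggrecan-cleaving enzyme, and MMP24, a membrane-bound metalloproteinase, fell by 6.12 (SE 0.75) and 4.19 (SE 0.53) on the log2 scale.

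The list of the plasminogen system, the cascade of urokinase, its receptor and its serpin inhibitors, also holds coagulation genes and other serpins. It had 8 rises and 2 falls among 17 tested genes, with a median of 0.61. THBD, the thrombin receptor thrombomodulin, read 172, 145 and 121 CPM in RasV12 and 4.31, 3.82 and 3.66 in ARPE19 (log2 5.21, SE 0.26, edgeR, Benjamini-Hochberg adjusted p = 3.78e-08). PLAUR, the urokinase receptor, read 228, 155 and 176 CPM against 71.6, 47.1 and 47.6, and TFPI2, a protease inhibitor, 389, 304 and 772 against 39.3, 51 and 67.1. F3, tissue factor, fell from 803, 761 and 712 CPM to 292, 341 and 301 (log2 -1.28, SE 0.18). The other fall was SERPINB9, a serpin (log2 -1.03, SE 0.27). SERPINB2, a urokinase inhibitor, read 3.5, 4.28 and 74.2 CPM against 0.908, 5.1 and 3.17, with overlapping groups. It was called higher (log2 3.15, SE 1.03, edgeR, Benjamini-Hochberg adjusted p = 0.0318). The call rests on replicate 3, since the log2 fold change without RasV12 replicate 3 was 0.35 (edgeR, Benjamini-Hochberg adjusted p = 0.75).

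The interleukin 1 family list, which holds cytokines, receptors and the protease CASP1, gave 3 rises and 2 falls among 8 tested. IL1B (ENSG00000125538, hg38 chromosome 2, 112829751 to 112836816), a secreted inflammatory cytokine, read 64.8, 109 and 535 CPM in RasV12 and 1.05, 1.2 and 0.5 in ARPE19. IL33, a nuclear alarmin, read 339, 235 and 955 CPM against 1.03, 1.64 and 3.66. Replicate 3 was the highest RasV12 library for both, and neither gene overlapped between the lines (log2 7.95, SE 0.86, and 7.96, SE 0.65, edgeR, Benjamini-Hochberg adjusted p = 1.89e-05 and 2.09e-06). IL18 fell from 165, 110 and 70.3 CPM to 20.2, 20.5 and 18. CASP1, the protease that matures IL1B and IL18, read 2.19, 4.16 and 3.83 CPM against 7.44, 12.2 and 7.58. It was called lower (log2 -1.42, SE 0.44, edgeR, Benjamini-Hochberg adjusted p = 0.0256), but not without RasV12 replicate 1 or ARPE19 replicate 2 (adjusted p = 0.0999 and 0.104). Without either of those libraries the list had 1 fall.

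Chemokines and IL6 family members gave 6 rises and 4 falls among 21 tested, and 2 falls without ARPE19 replicate 1. CXCL3, a neutrophil attractant, read 46.6, 28.1 and 152 CPM in RasV12 and 0.732, 0.794 and 1 in ARPE19 (log2 6.49, SE 0.60, edgeR, Benjamini-Hochberg adjusted p = 5.66e-06). CXCL2 and CXCL3 are near-identical neighbours whose reads may be split between them. CXCL8, interleukin 8, read 79, 95.5 and 1899 CPM against 32.1, 93.7 and 48.5. Its rise rests on replicate 3, since the log2 fold change was 3.57 (SE 0.98, edgeR, Benjamini-Hochberg adjusted p = 0.0132) with all libraries and 0.59 (adjusted p = 0.358) without RasV12 replicate 3, and adjusted p was 0.0568 without ARPE19 replicate 1. IL6, with a log2 difference of -0.46, did not pass the test.

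Promoter sequence was examined because AP-1 dimers, to which FOSL1 belongs, recognise a palindrome of the form TGANTCA. The 250 bases before the annotated start in RefSeq (GRCh38.p14) held this motif, which reads alike on both strands, in 3.99% of the 10900 tested genes with a window and in 6.6% of all 27305 windows. It was found in 14 of 115 windows of genes called higher by 8-fold or more (12.2%) and in 16 of 212 of those called lower by 8-fold or more (7.55%). For changes of 2-fold or more the shares were 5.97% and 4.97%. CCGGAAGT, an ETS motif searched on both strands, was in 6.89% of tested windows, in 0 of 115 and in 0.472% of the 212. Both motifs were searched with the differences already known, and a match describes letters in a window and not a bound site. Of 29 members of the gene lists higher by 8-fold or more with a window, 5 held TGANTCA, and of 18 lower ones 2 did. The 5 included CXCL8 and SERPINB2, whose log2 fold changes were 0.59 and 0.35 without RasV12 replicate 3. The windows of 3 risers and of LAMA3, a laminin chain that fell from 32, 19.5 and 14.5 CPM to 1.57, 1.32 and 1.94, are shown 5′ to 3′ on the strand of the gene with the motif in capitals.
MMP10: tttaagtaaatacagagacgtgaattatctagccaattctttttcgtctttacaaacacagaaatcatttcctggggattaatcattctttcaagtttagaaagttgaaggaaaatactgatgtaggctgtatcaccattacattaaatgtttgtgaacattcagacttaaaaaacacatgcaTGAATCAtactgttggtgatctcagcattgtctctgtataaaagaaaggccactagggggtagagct
CXCL8: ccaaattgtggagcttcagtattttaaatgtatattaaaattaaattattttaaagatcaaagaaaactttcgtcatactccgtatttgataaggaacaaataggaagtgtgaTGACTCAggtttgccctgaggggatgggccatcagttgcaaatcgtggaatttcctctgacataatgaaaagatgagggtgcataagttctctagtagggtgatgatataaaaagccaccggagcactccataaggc
TFPI2: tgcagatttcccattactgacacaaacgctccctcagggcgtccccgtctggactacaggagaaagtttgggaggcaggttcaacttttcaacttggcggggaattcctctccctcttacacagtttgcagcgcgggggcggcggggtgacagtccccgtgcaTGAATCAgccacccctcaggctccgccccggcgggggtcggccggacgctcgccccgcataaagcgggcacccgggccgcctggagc
LAMA3: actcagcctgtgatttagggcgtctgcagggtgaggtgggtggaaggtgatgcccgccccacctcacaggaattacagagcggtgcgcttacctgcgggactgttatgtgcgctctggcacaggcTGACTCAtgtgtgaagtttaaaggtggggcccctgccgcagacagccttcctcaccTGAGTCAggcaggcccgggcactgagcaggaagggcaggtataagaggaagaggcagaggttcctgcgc
These are the windows chr11:102780629-102780878 (minus strand), chr4:73740319-73740568 (plus), chr7:93890754-93891003 (minus) and chr18:23872770-23873019 (plus). The match starts 67 bases before the start in MMP10, 137 in CXCL8 and 87 in TFPI2. LAMA3 has 2 matches, which start 125 and 69 bases before the start. Its window lies inside the hg38 span of the gene, 23689443 to 23956222. That start is therefore not the first base of the counted gene. The letters at the central position of the motif are A in MMP10 and TFPI2, C in CXCL8, and C and G in LAMA3.

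Among 28 tested p53 targets 12 fell and 2 rose, with a median of -0.51. The rises, GDF15 and SESN2, were lost without RasV12 replicate 2 or without ARPE19 replicate 1, when none was called higher, and 1 was higher without RasV12 replicate 3 or ARPE19 replicate 3. MDM2, the ubiquitin ligase that degrades p53, read 56.6, 92.2 and 109 CPM in RasV12 and 151, 143 and 167 in ARPE19 (log2 -0.84, SE 0.21, edgeR, Benjamini-Hochberg adjusted p = 0.00873). BTG2, an antiproliferative gene, read 10.1, 19.2 and 13.8 CPM against 60.3, 42.3 and 33.6, and SESN1, a stress gene, 13.8, 18.7 and 15.2 against 42.1, 37.9 and 31.6. The libraries labelled T53D4 held MDM2, BTG2 and SESN1 at means of 62.1, 15.8 and 16 CPM. CDKN1A, the p21 inhibitor of cell cycle kinases (ENSG00000124762, hg38 chromosome 6, 36676460 to 36687339), stood apart from these. It read 371, 555 and 547 CPM in RasV12 and 656, 458 and 378 in ARPE19, with overlapping groups (log2 -0.02, SE 0.28, edgeR, Benjamini-Hochberg adjusted p = 0.968). The T53D4 mean was 191, not called lower than ARPE19 (log2 -1.38, SE 0.28, edgeR, Benjamini-Hochberg adjusted p = 0.0966). In the same fit CDKN1A was higher in RasV12 than in T53D4 (log2 1.36, SE 0.28, edgeR, Benjamini-Hochberg adjusted p = 0.00309).

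Regulators of the G1 phase gave 6 rises and 2 falls among 21 tested. CDK6, which shares cyclin D1 with CDK4, fell from 193, 137 and 92.9 CPM to 28.8, 22.7 and 20.8 (log2 -2.55, SE 0.31, edgeR, Benjamini-Hochberg adjusted p = 5.38e-05). E2F7, an atypical E2F repressor, rose from 27.4, 53.8 and 65.7 CPM to 222, 289 and 225 (log2 2.33, SE 0.29). E2F1, the activator, rose from 22.4, 30.9 and 43.5 to 102, 67.8 and 84.3 (log2 1.39, SE 0.23). CDKN2A, the p16 and ARF gene, read 11.4, 7.42 and 7.07 CPM against 22.6, 13.1 and 14.2. It was called lower (log2 -0.95, SE 0.26, edgeR, Benjamini-Hochberg adjusted p = 0.0142) but not without RasV12 replicate 2 or 3 or ARPE19 replicate 1 (adjusted p = 0.0607, 0.0553 and 0.088), when the list had 1 fall.

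Division genes rose in part and none fell with all libraries in the fit, and the number of rises depended on the ARPE19 library. DNA replication genes gave 10 rises and no fall among 40 tested (median 0.55), spindle checkpoint and kinetochore genes 14 and none among 40 (median 0.51), and mitotic kinases with spindle and cytokinesis genes 7 and none among 37 (median 0.39). These shares of rises, 25%, 35% and 18.9%, stand beside 14.4% for all genes. The median difference within replicate numbers 1, 2 and 3 was 1.19, 0.46 and 0.12 for the replication list, 1.30, 0.54 and -0.07 for the kinetochore list and 1.13, 0.46 and -0.26 for the mitotic list. ARPE19 replicate 1 was the lowest of the 6 libraries in all 3 lists, and ARPE19 replicate 3 lay within the RasV12 range. Without ARPE19 replicate 1 the rises numbered 4, 6 and 3, and without ARPE19 replicate 3 they numbered 22, 26 and 21. Without ARPE19 replicate 2 they were 5, 6 and 4, without RasV12 replicate 1 they were 5, 6 and 3, and the kinetochore list had 8 without RasV12 replicate 2 or 3. The mitotic list had 1 fall without RasV12 replicate 1 or ARPE19 replicate 1. Against T53D4, whose libraries share the fit, the 3 lists had 0, 1 and 1 rises and 1 fall each, beside 10.8% higher and 13.6% lower among all genes.

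Single division genes followed the same order. BUB1, a checkpoint kinase, read 186, 137 and 119 CPM in RasV12 and 85.8, 107 and 169 in ARPE19 (log2 0.29, SE 0.24, edgeR, Benjamini-Hochberg adjusted p = 0.399). TTK, the kinase MPS1, read 92.1, 73 and 68.6 CPM against 35.4, 51.8 and 93.5 (log2 0.37, SE 0.30, edgeR, Benjamini-Hochberg adjusted p = 0.373), and passed without ARPE19 replicate 3 (log2 0.84). In both genes the groups overlapped, with ARPE19 replicate 3 above 2 or more RasV12 libraries. AURKA, the spindle pole kinase, read 188, 172 and 115 CPM against 64.1, 93.8 and 140 and missed the test (log2 0.68, SE 0.27, edgeR, Benjamini-Hochberg adjusted p = 0.0721), but passed without RasV12 replicate 3 or ARPE19 replicate 3 (log2 0.86 and 1.01). AURKB, the chromosomal passenger kinase, read 68, 67.5 and 47.7 CPM against 26.6, 35.7 and 41.7 and passed in every fit that left out 1 library (log2 0.82, SE 0.20, edgeR, Benjamini-Hochberg adjusted p = 0.00722). RRM2, a ribonucleotide reductase subunit, read 469, 300 and 368 CPM against 80, 130 and 208, and UBE2C, which feeds the anaphase-promoting complex, 171, 142 and 99.6 against 51.1, 53.2 and 83.6. Neither overlapped between the lines. BUB3, a checkpoint protein, read 500, 380 and 378 CPM against 199, 225 and 291 (log2 0.81, SE 0.18).

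**Figure D3:**
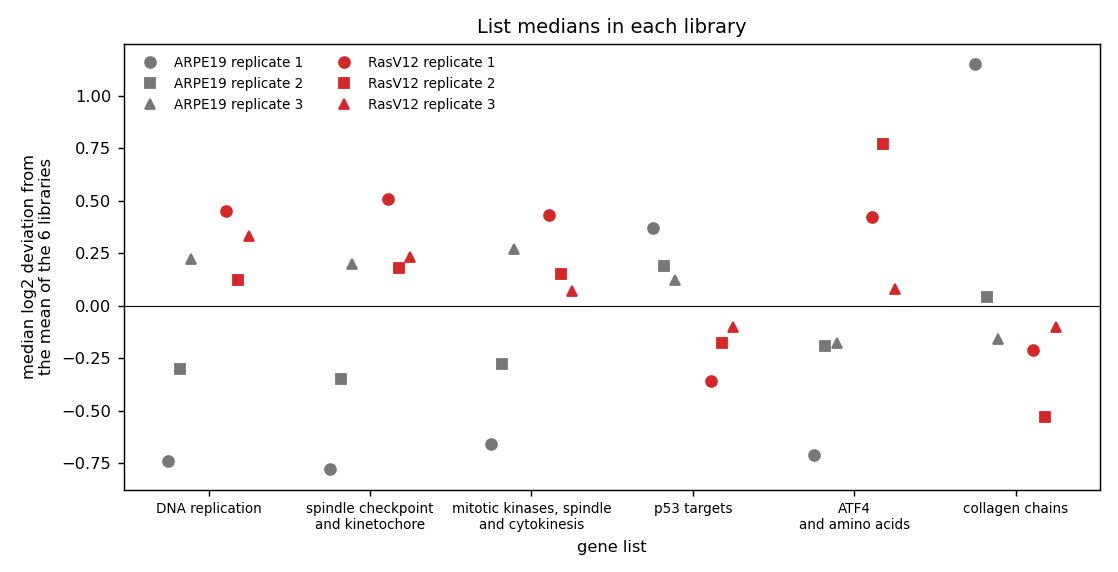
Median log2 deviation of list members from their mean over the 6 libraries, for each library of ARPE19 (grey) and RasV12 (red), with a symbol per replicate number. The 3 division lists run from -0.78 to 0.27 among the ARPE19 libraries and from 0.07 to 0.51 in RasV12, and ARPE19 replicate 1 stands at 1.15 for the collagen chains.

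Genes of pigment epithelium identity gave 8 falls and 4 rises among 23 tested, with a median of -0.45. MITF (ENSG00000187098, hg38 chromosome 3, 69739435 to 69968337) read 25.1, 31.2 and 26.3 CPM in RasV12 and 80, 84.5 and 85.4 in ARPE19 (log2 -1.60, SE 0.26, edgeR, Benjamini-Hochberg adjusted p = 0.000453). Every RasV12 library was below every ARPE19 library, and the T53D4, MekDD and AKTmyr means were 92.5, 65.5 and 90.8. KRT18 and KRT8, keratins of simple epithelium, fell by 1.66 (SE 0.25) and 1.46 (SE 0.17) on the log2 scale. BEST1, a chloride channel, read 2.66, 2.15 and 2.79 CPM against 0.762, 1.05 and 0.708, on a span that overlaps the gene FTH1 on the other strand. The falls numbered 5 without ARPE19 replicate 1. The rises numbered 2 without ARPE19 replicate 1, 2 or 3 or without RasV12 replicate 1 or 3.

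Epithelial junction and keratin genes fell in 13 of 27 cases and rose in 2, with a median of -0.92. JUP, plakoglobin, which links cadherins to the cytoskeleton, read 8.03, 7.61 and 9.46 CPM in RasV12 and 109, 59.5 and 45.3 in ARPE19 (log2 -3.09, SE 0.35, edgeR, Benjamini-Hochberg adjusted p = 2.98e-05). CLDN11, a tight junction claudin, read 18.7, 11 and 6.03 CPM against 78.1, 50.6 and 67.8. Among basal adhesion genes the laminin chains went apart, with LAMB3 up from 36.6, 27.7 and 23.2 CPM to 138, 146 and 256 (log2 2.62, SE 0.27) and LAMA3 down by 3.79 (SE 0.40). ITGB4, the hemidesmosome integrin, fell from 331, 103 and 82.8 to 16.4, 11.4 and 12 CPM (log2 -3.70, SE 0.59), and ITGA2, a collagen receptor, rose from 8.29, 15.2 and 11.8 to 52.3, 74.6 and 136 (log2 2.89, SE 0.33). Among 18 integrins 5 rose and 4 fell.

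Mesenchymal and contractile genes gave 12 falls and 5 rises among 27 (7 falls without ARPE19 replicate 1, and 3 rises without RasV12 replicate 3 or ARPE19 replicate 3). CDH11, a mesenchymal cadherin, fell from 292, 241 and 206 CPM to 31, 18.8 and 21.9 (log2 -3.37, SE 0.25, edgeR, Benjamini-Hochberg adjusted p = 7.44e-07). MYL9, a myosin light chain, fell from 385, 323 and 161 to 40.5, 62.3 and 99.2 (log2 -2.11, SE 0.46). ZEB1, a repressor of epithelial genes, rose from 38, 35.1 and 30.9 CPM to 96.1, 75.3 and 62.3 (log2 1.17, SE 0.20, edgeR, Benjamini-Hochberg adjusted p = 0.000833). VIM, vimentin, had 13991, 9071 and 7910 CPM against 9879, 8841 and 7981, with overlapping groups.

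Collagen chains gave 10 falls and 4 rises among 24, with a median of -1.0. COL4A1, a basement membrane chain, read 74.2, 53.6 and 84.7 CPM in RasV12 and 1311, 337 and 308 in ARPE19 (log2 -3.20, SE 0.70, edgeR, Benjamini-Hochberg adjusted p = 0.00343). COL6A3 went the other way, from 0.205, 0 and 0.167 CPM to 41.3, 33.2 and 17.7 (log2 8.01, SE 0.73, edgeR, Benjamini-Hochberg adjusted p = 4.71e-06). ARPE19 replicate 1 had the most collagen RNA by list median, and without it the list median was -0.25, with 10 falls and 3 rises.

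Growth factor pathways changed member by member. In the EGFR family 2 rose and 4 fell among 12 tested. The ligand AREG read 2.77, 2.48 and 5.04 CPM in RasV12 and 0.0586, 0.461 and 0.208 in ARPE19 (log2 3.76, SE 0.62), while the receptors EGFR and ERBB4 fell, EGFR from 353, 381 and 424 CPM to 197, 193 and 218 (log2 -0.93, SE 0.20) and ERBB4 from 19.4, 9.66 and 10.7 to 0.694, 0.662 and 0.991 (log2 -4.10, SE 0.62). Among 26 genes of TGF-beta and BMP signalling 7 rose and 5 fell (4 rises without RasV12 replicate 3). BMP2 rose from 15.4, 18.6 and 16.7 CPM to 137, 105 and 151 (log2 2.95, SE 0.17, edgeR, Benjamini-Hochberg adjusted p = 1.54e-07), and its target ID1 rose from 33.8, 32.4 and 40.6 to 174, 227 and 250. BMP4 fell from 101, 105 and 108 CPM to 18.6, 14.7 and 15.2, and TGFB2 from 1467, 753 and 624 to 109, 90 and 109 (log2 -2.69, SE 0.38, and -3.20, SE 0.43). These 4 ligand and target genes did not overlap between the lines.

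WNT pathway genes gave 4 rises and 5 falls among 22 (3 falls without RasV12 replicate 1 or 2 or ARPE19 replicate 1 or 3). Their shares were 18.2% and 22.7%, beside 14.4% and 16.2% among all genes. WNT2B, a ligand, fell from 122, 45.8 and 33.9 CPM to 1.17, 1.11 and 2.57 (log2 -5.43, SE 0.84), and the receptor gene FZD8 rose from 5.36, 4.61 and 4.83 to 59, 44.6 and 59.6 (log2 3.46, SE 0.21). Insulin and FOXO genes fell in 15 of 25 cases and rose in 1, with a median of -0.79 (3 rises without ARPE19 replicate 1). FBXO32, a FOXO-driven ubiquitin ligase, read 73.5, 79.2 and 179 CPM against 561, 551 and 481, and the receptors IGF1R and INSR fell by 0.92 (SE 0.21) and 0.87 (SE 0.18) on the log2 scale. YAP and TEAD targets gave 12 falls and 3 rises among 27, with a median of -0.57 (1 rise without ARPE19 replicate 2). CRIM1, a membrane protein that binds BMPs, fell from 2319, 1320 and 1422 CPM to 480, 330 and 616. CCN2, a widely used YAP target, read 167, 135 and 115 CPM against 518, 185 and 159 and did not pass (log2 -1.05, SE 0.66, edgeR, Benjamini-Hochberg adjusted p = 0.256). NT5E, the surface nucleotidase CD73, rose from 294, 504 and 720 CPM to 3045, 2407 and 2869 (log2 2.45, SE 0.46).

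The amino acid response run by the factor ATF4 gave 14 rises and no fall among 29 tested, with a median of 0.85 (9 rises without RasV12 replicate 2). TRIB3, a pseudokinase of this response, read 154, 264 and 120 CPM in RasV12 and 23, 36.9 and 33.7 in ARPE19 (log2 2.52, SE 0.50, edgeR, Benjamini-Hochberg adjusted p = 0.00186). ASNS, asparagine synthetase, read 203, 203 and 75.2 CPM against 26.5, 75.4 and 62.3, with replicate 3 of RasV12 just under replicate 2 of ARPE19. PHGDH, the first enzyme of serine synthesis, read 399, 351 and 240 CPM against 83.8, 164 and 153. The median difference of the list within replicate numbers 1, 2 and 3 was 1.08, 1.00 and 0.16. The T53D4 means of TRIB3, ASNS and PHGDH were 104, 183 and 382 CPM. The list median of T53D4 over ARPE19 was 1.00, with 1 rise and no fall called, beside 0.0368% and 0.118% of all genes. TRIB3 was not called there (log2 1.73, SE 0.49, edgeR, Benjamini-Hochberg adjusted p = 0.214). RasV12 over T53D4 gave 1 rise and 2 falls in this list, beside 10.8% higher and 13.6% lower among all genes.

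Glycolysis and hypoxia genes gave 6 falls and 1 rise among 36, with a median of -0.44 (10 falls and 2 rises without RasV12 replicate 1, 2 rises without RasV12 replicate 3, and 10 falls with DESeq2 or with the 6 libraries alone). The share of falls, 16.7%, was near the 16.2% of all genes, and that of rises was 2.78% beside 14.4%. The rise was STC1, a secreted glycoprotein, from 0.41, 0.231 and 0.0416 CPM to 51.7, 15.1 and 16.7 (log2 6.82, SE 0.76). SLC2A1, the glucose transporter GLUT1, fell from 1062, 773 and 780 CPM to 538, 370 and 313 (log2 -1.10, SE 0.28). NRF2 targets and aldo-keto reductases gave 5 rises and no fall among 22 (1 fall without RasV12 replicate 1 or 2). HMOX1, heme oxygenase, rose from 35.8, 32.5 and 20.4 CPM to 89.7, 163 and 152. AKR1C1 and AKR1C2 were both higher but are near-identical, so their reads may be split. NQO1, with a log2 difference of 0.27, did not pass. Ribosome biogenesis genes and MYC targets gave 8 rises and 1 fall among 30 (4 rises without RasV12 replicate 2 or ARPE19 replicate 1, no fall without RasV12 replicate 1 or 3 or ARPE19 replicate 1 or 2). Sterol and fatty acid synthesis gave 1 rise and 5 falls among 33 (3 falls without RasV12 replicate 2 or 3 or ARPE19 replicate 1 or 2, and 2 rises without RasV12 replicate 3 or ARPE19 replicate 1). Retinoid and aldehyde dehydrogenase genes gave 2 rises and 3 falls among 16, or 12.5% and 18.8%. These 2 shares and that of the sterol falls, 15.2%, were near those of all genes. The share of sterol rises was 3.03%.

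Survival and death genes gave 5 rises and 4 falls among 23, or 21.7% and 17.4%, beside 14.4% and 16.2% among all genes. MCL1, a short-lived BCL2 relative, rose from 259, 216 and 211 CPM to 885, 556 and 542 (log2 1.53, SE 0.21, edgeR, Benjamini-Hochberg adjusted p = 0.000128). HRK, a death activator, fell from 7.29, 11.2 and 9 CPM to 0.511, 1.39 and 1.04 (log2 -3.19, SE 0.56). Interferon response genes gave 8 falls and 3 rises among 31. MX1, an antiviral GTPase, fell from 3.4, 3.2 and 2.83 CPM to 1.24, 0.78 and 0.991, while IFI44L rose from 0.381, 0.717 and 1.04 to 20.4, 30.3 and 33.9 (log2 5.33, SE 0.38). Of 20 genes of class I antigen presentation none rose, and 1 fell, ERAP1, whose call was lost without RasV12 replicate 1 or 2 or ARPE19 replicate 1 or 2. Without RasV12 replicate 3 this list had 2 falls, and with DESeq2 it had 3.

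**Figure D4:**
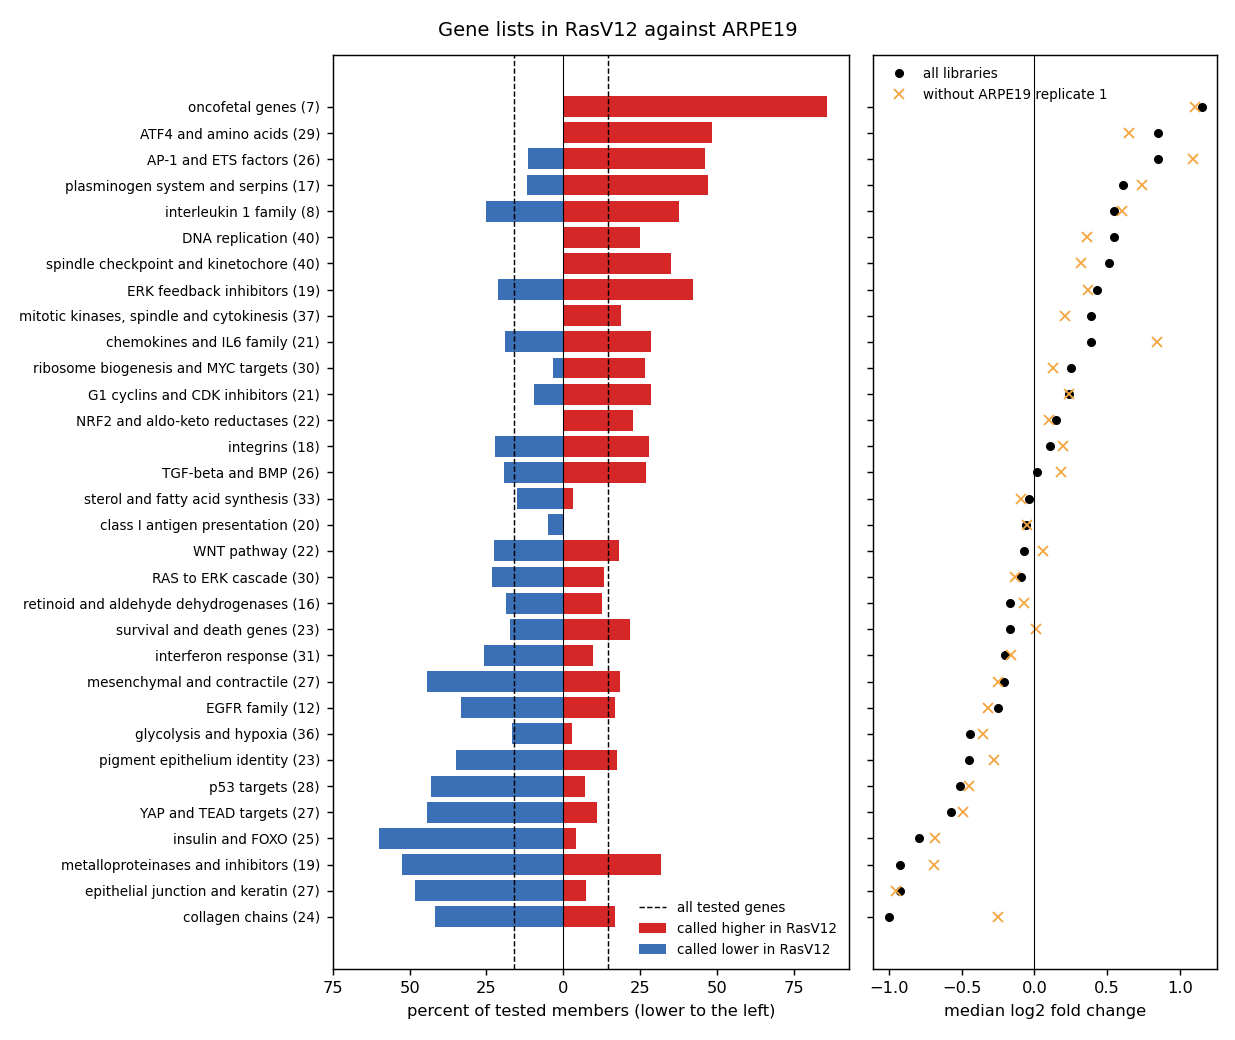
Left, the percent of tested members (number in brackets) called higher in RasV12 (red, to the right) or lower (blue, to the left) for 32 gene lists, with dashed lines at 14.4% and 16.2% for all tested genes. Right, the list's median log2 fold change with all libraries (black) and without ARPE19 replicate 1 (orange), which moves the collagen median from -1.0 to -0.25.

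Some genes stood apart in RasV12 from all 4 other lines, with a call in the same direction against each in the same fit. Among all genes RasV12 differed from T53D4 in 24.4%, from MekDD in 15.5% (7.17% higher, 8.33% lower) and from AKTmyr in 40.4% (19.6% higher, 20.7% lower). By the smallest of the 4 differences the leading rises were PI3, LCE1F, IL1B, MMP3, CXCL3 and PARM1, and the leading falls SFRP4, FAM110C, RFLNA, ST6GAL2, CCL2 and GALNT17. PI3 did not stand apart in every library, since RasV12 replicate 1 had 0.256 CPM and the MekDD libraries 0.107 ± 0.164 (SD, n = 3). PARM1, a mucin-like protein, read 7.12, 12 and 25.2 CPM in RasV12, and its means in ARPE19, T53D4, MekDD and AKTmyr were 0.33, 0.296, 0.352 and 0.166. SFRP4, a secreted WNT antagonist, read 0.0365, 0.142 and 0.045 CPM in RasV12, and its means in the same 4 lines were 12.6, 14, 7.67 and 12. For some other large rises the MekDD mean also lay above the ARPE19 mean, though MekDD over ARPE19 was not tested. The ARPE19 means of DUSP6, SPRY4 and MMP1 were 8.64, 3.09 and 0.283 CPM. DUSP6, SPRY4 and MMP1 had MekDD means of 84.6, 31 and 87.9 CPM, and RasV12 exceeded MekDD by log2 2.05, 1.84 and 5.32 (edgeR, Benjamini-Hochberg adjusted p = 8.78e-06, 0.00177 and 5.58e-05). These comparisons share the RasV12 libraries, and the libraries labelled MekDD also differ from RasV12 in the level of the cyclin D1 and CDK4 constructs given above.

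Along the genome, chromosome 10 split at its widest stretch without annotated genes, positions 38360098 to 42574185 in hg38. This split was examined because its values had been noticed. Of 123 tested genes before that stretch 9 were higher and 50 lower (7.32% and 40.7%), with a median of -0.37. Of 415 after it 137 were higher and 51 lower (33% and 12.3%), with a median of 0.29. The medians within replicate numbers 1, 2 and 3 were -0.16, -0.32 and -0.58 before and 0.25, 0.24 and 0.33 after the stretch, so all 3 had the same sign on each side. For T53D4 over ARPE19 both medians lay within 0.02 of 0. On chromosome 20, 106 of 352 genes were higher and 27 lower (30.1% and 7.67%), with a median of 0.24. On chromosome 22, 29 of 305 were higher and 78 lower (9.51% and 25.6%), with a median of -0.09. Of the called genes described above, THBD, BMP2, ID1, TRIB3, E2F1, UBE2C and PI3 were higher and RASSF2, MMP24 and MYL9 lower on chromosome 20. On chromosome 10, AKR1C1, AKR1C2, FZD8 and ZEB1 were higher before the stretch and DUSP5 and BUB3 higher after it. The number of copies of these chromosomes was not measured here.

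**Figure D5:**
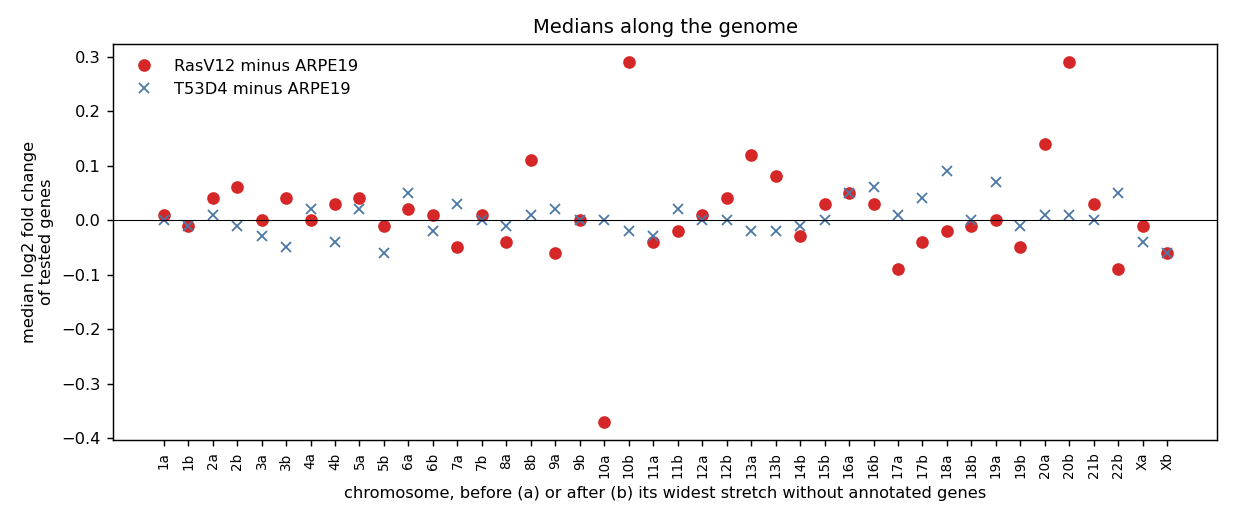
Median log2 fold change of tested genes before (a) and after (b) the widest stretch without annotated genes on each chromosome, for RasV12 over ARPE19 (red points) and T53D4 over ARPE19 (blue crosses). Chromosome 10 stands at -0.37 and 0.29 on its 2 sides and chromosome 20 at 0.14 and 0.29 in RasV12, while every T53D4 median lies within 0.09 of 0.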

How the data were processed

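RNA was measured in 15 libraries of 5 lines, 3 libraries each, as poly(A) RNA read in pairs per the labels' protocols. The authors deposited 1 table of raw counts per gene for all libraries. The submitters' processing notes name, with no roles, the build hg38 and the tools HISAT2 2.1.0, SAMtools 1.9, featureCounts 1.6.4, DESeq2 1.28.1, fastp 0.20.0 and deepTools 3.2.0. Whether counting used the strand is not given in the sources used here, so genes that overlap on the other strand are uncertain, among those named CDK4, CCND1, KRT8, KRT18, LRIG1, BRAF, RASA1, ETV4, IGF2BP3, TIMP1, TIMP3, MMP24, TFPI2, IL18, IL6, MDM2, CDKN2A, BEST1, ITGB4, COL4A1, WNT2B, CRIM1, ERAP1 and SFRP4. ETV5, CLDN11, RFLNA and SERPINB2 overlap a gene on the same strand.

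The 7 construct rows were set aside, and 13599 of 15510 gene rows passed filterByExpr (minimum count 10). The quasi-likelihood test of edgeR 4.0.16 in R 4.3.3 was fitted to all 15 libraries by line, with trimmed-mean scaling, 10 residual degrees of freedom and Benjamini-Hochberg adjustment over all tested genes. The script was tested on simulated data. Groups came from the labels, and p-values measure the spread between cultures of 1 line each. DESeq2 1.42.0, other scaling, no filter, the replicate number as a block, the 6 libraries alone, construct rows kept and each library left out were tried. A read count of 0 over a line was bounded at 3 reads.

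Members and gene lists were chosen with earlier results of these data known. Named genes are the construct genes, the 12 largest rises and 12 largest falls (mean of 5 CPM or more in the higher line, no overlap), up to 3 rises and 3 falls per list (1 CPM or more), 14 genes chosen by name and the 6 rises and 6 falls that stood furthest from every other line. Further list members, such as CXCL8, TIMP1, SPRY2, ERRFI1, ASNS, PHGDH, BUB3, IGF1R, VIM and KRT8, were chosen after their values were seen. Promoter windows are from RefSeq. Some results are not reported here.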

Additional observations from a re-analysis of the deposited data

How the results depend on the processing

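The 1964 higher and 2205 lower genes were the counts of all genes, and each alternative stayed within 1.5 times of them. They were 1919 and 2217 with median-of-ratios size factors, 2226 and 2463 with DESeq2, 2103 and 2140 with no filter on low counts, 1564 and 1969 with only the 6 libraries, and 1968 and 2205 with construct rows kept. Leaving out 1 library gave 1370 to 2013 higher and 1601 to 2263 lower genes, the lowest without ARPE19 replicate 1. With the replicate number as a block there were 2917 higher and 3005 lower genes, and 1687 and 2134 in the 6 libraries alone. The main fit was by line alone, because the series states 3 replicates per line and no block. The deviations of same-numbered RasV12 and ARPE19 libraries correlated at 0.23, 0.30 and 0.01. RasV12 replicate 3 correlated best with ARPE19 replicate 2 (0.04). Same-numbered libraries correlated more closely in other pairs of lines, at 0.56, 0.45 and 0.56 for ARPE19 and T53D4, 0.72, 0.32 and 0.66 for ARPE19 and AKTmyr, and 0.46, 0.40 and 0.38 for RasV12 and MekDD. Whether a number marks a shared batch was not tested. With the replicate block 15 counts of list members moved by over 1.5 times, each of them upward. Rises became 20 in the replication list, 14 in the mitotic list, 5 each in the interleukin 1, interferon and YAP lists, 4 in glycolysis and hypoxia and 3 in sterol synthesis. Falls became 16 in glycolysis and hypoxia, 11 in the RAS to ERK cascade, 7 among survival genes, 5 among AP-1 and ETS factors, 3 in class I presentation and 1 each in the mitotic, ATF4 and NRF2 lists. The log2 fold change of CDKN1A, -0.02, was 0.05 with the block, 0.01 with no filter, and between -0.18 and 0.24 in the fits without 1 library (0.15 without RasV12 replicate 1, 0.24 without ARPE19 replicate 1, -0.18 without ARPE19 replicate 3). That of MAP2K1, -0.05, ran from -0.20 without RasV12 replicate 1 to 0.10 without ARPE19 replicate 3, and was 0.06 without RasV12 replicate 2. The cause was not tested in either gene. Results of the named genes in the 6 fits without 1 library were counted per gene and fit. A call was lost in 73 cases and gained in 4, the sign of an uncalled difference reversed in 4, and 1052 stayed the same. With 3 libraries a line, genes near the threshold depend on single libraries.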
